A study of Mus musculus with 6 samples.

Results

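The fatty acid binding proteins (Fabp) described here are 9 mouse genes: Fabp1, Fabp2, Fabp3, Fabp4, Fabp5, Fabp6, Fabp7, Fabp9 and Fabp12. They were chosen by symbol from the 49997 genes of the authors' deposited table, and the family here means these 9. Pmp2, the myelin fatty acid binding protein, has no Fabp symbol and is given apart from them. RNA came from 6 retinas, each a library of its own, in a study that compared retinas labelled Samd7 knockout with wild-type mouse retinas. The 3 retinas of the mutant group carry the genotype label Samd7 knockout (-10A) and come from postnatal day 31. The 3 control retinas carry the label c57Bl6/j wt and were taken at postnatal day 36. All 6 are labelled male, the strain background of the mutant is not given in the labels, and genotype, age and any difference in handling cannot be told apart. Whether each retina is from a different mouse is not in the labels, so any spread given here is that between these retinas, and p-values measure no more than that. The family was picked with the results of this comparison already known. Its differences between the groups are therefore given as a description of these libraries, and calls of members come with no p-value.

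Fatty acid binding proteins are small cytosolic carriers. Each folds into a barrel that holds a long-chain fatty acid, or in some members a bile acid, and moves it between membranes, enzymes and nuclear receptors. Members are named for the tissue in which they are abundant: liver (Fabp1), intestine (Fabp2), heart and muscle (Fabp3), fat cells and macrophages (Fabp4), skin (Fabp5), ileum (Fabp6), brain (Fabp7) and testis (Fabp9). In the nervous system Fabp7 marks radial glia and astrocytes of the developing brain and binds docosahexaenoic acid, the fatty acid in which photoreceptor outer segments are rich. Fabp12 was described in rodent retina and testis.

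The gene start of Fabp7 is printed because this member separated the 2 groups most, and that of Fabp3 because it is a family member of nearly equal level in both. Each line runs from 250 bases before to 50 bases after the RefSeq gene start on the plus strand of GRCm38.p6, Fabp7 at chr10:57784673-57784972 and Fabp3 at chr4:130308488-130308787.
Fabp7: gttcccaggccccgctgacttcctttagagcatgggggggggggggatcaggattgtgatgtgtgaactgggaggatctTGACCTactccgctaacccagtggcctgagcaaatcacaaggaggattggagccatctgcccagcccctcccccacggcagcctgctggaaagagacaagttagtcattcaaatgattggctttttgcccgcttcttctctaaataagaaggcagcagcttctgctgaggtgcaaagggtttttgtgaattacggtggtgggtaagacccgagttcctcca
Fabp3: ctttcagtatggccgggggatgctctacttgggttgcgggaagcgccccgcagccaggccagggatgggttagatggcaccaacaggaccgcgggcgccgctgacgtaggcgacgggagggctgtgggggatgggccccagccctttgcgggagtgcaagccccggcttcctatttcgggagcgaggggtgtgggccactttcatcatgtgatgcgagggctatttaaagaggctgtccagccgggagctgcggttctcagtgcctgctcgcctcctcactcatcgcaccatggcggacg
Capitals mark the only match found to 5 motifs searched on both strands. They read AGGTCA, the hexamer bound by nuclear receptors such as the retinoid X receptors, on the minus strand 171 bases before the start of Fabp7. No match of this or of the motifs TAATCC (Crx), GTGGGAA (RBPJ), TTGGCA (NFI) and ATTTGCAT (octamer) was in the Fabp3 window. The letters AGGTCA occur on either strand in 16.3% of 32851 RefSeq promoters of 300 bases, TAATCC in 7.06%, GTGGGAA in 6.38%, TTGGCA in 14.1% and ATTTGCAT in 1.74%, so a match is only a description. Of the 9 members, 5 had an entry in the promoter table. Among these the Fabp1 window held AGGTCA 67 and 9 bases before the start, and the Fabp6 window held TTGGCA 45 bases before it. No matches overlapped.

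The members resemble each other only in part in sequence, and long shared runs would matter for counting reads. Across the 36 pairs of the 9 coding sequences, identity over the alignment ran between 48.8% and 66.8%, and the closest pair was Fabp7 with Fabp3. That pair also holds the longest run of identical bases, 20 bases. It is shown in capitals with 20 coding bases on either side, from GENCODE transcripts of GRCm38, bases 152 to 211 of each coding sequence.
Fabp7: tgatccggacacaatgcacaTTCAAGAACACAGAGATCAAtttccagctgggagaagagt
Fabp3: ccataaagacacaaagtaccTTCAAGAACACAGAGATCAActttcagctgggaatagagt
The run covers bases 172 to 191 in both genes, and the flanks differ at several positions. The sources used here do not state how reads matching several genes were counted.

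Reads recovered from the normalized values summed to 44231112 to 53068288 in Samd7 KO-labelled libraries and 47727617 to 62813549 in wild type. Samd7 itself had 44932 to 57837 normalized reads in Samd7 KO-labelled libraries, against 6349 to 8141 in wild-type retinas, so the targeted gene was higher, not lower, under that label (6.57-fold, limma adjusted p = 1.54e-08). The labels do not say what part of the gene was altered, and all directions below are for retinas labelled Samd7 KO. Retinal markers were present: all 14 rod, 13 cone, 12 bipolar, 11 amacrine, 7 horizontal and 11 ganglion cell markers passed the filter on low values. Of these, rods had 0 higher and 11 lower, cones 7 higher and 1 lower, bipolar cells 1 and 1, amacrine cells 0 and 1, horizontal cells 0 and 0, and ganglion cells 1 and 0. For comparison, 6.79% of all genes tested were called higher and 5.21% lower. The library labelled wild type 3 stood apart in lens markers, whose summed level was 174 to 265 normalized reads in the libraries labelled KO, against 7986 in wild type 3 and 219 and 240 in the other wild-type libraries. Of 5 lens genes tested, 0 were higher and 0 lower.

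Fabp7, the brain-type member on chromosome 10 (57784923 to 57788450, GRCm38), stood far apart. It had 9665, 8280 and 8173 normalized reads in Samd7 KO-labelled retinas 1, 2 and 3, against 66.7, 60.6 and 63.1 in wild type 1, 2 and 3. Every library labelled KO lay far above every wild-type library, and the libraries of a group lay close together. The group means were 8706 ± 832 in KO-labelled retinas, against 63.5 ± 3.08 in wild-type retinas (SD, n = 3 each), a ratio of 137. The log2 fold change was 7.07 (SE 0.11, limma-trend on log2(value + 1)), and leaving out single libraries gave values from 6.997 to 7.118. The reads behind these values numbered 7986 to 8564 per library labelled KO and 56 to 78 per wild-type library, so that Fabp7 was low but detected in normal retina.

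Set against all genes, Fabp7 was among the highest in retinas labelled KO and near the middle in wild type. Per kilobase of its longest coding transcript, its level exceeded that of 98.6% to 98.9% of 20875 genes with a coding transcript in KO-labelled retinas, and of 47.1% to 47.7% in wild type. Its rank from the top was 225 to 290 in KO-labelled retinas, against 10924 to 11043 in wild-type retinas. Genes with 0 reads shared the last rank, 16330 to 16408 in wild-type retinas, so Fabp7 lay lower among detected genes. In bulk tissue, more cells that express a gene and more RNA per cell cannot be told apart.

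**Figure D1:**
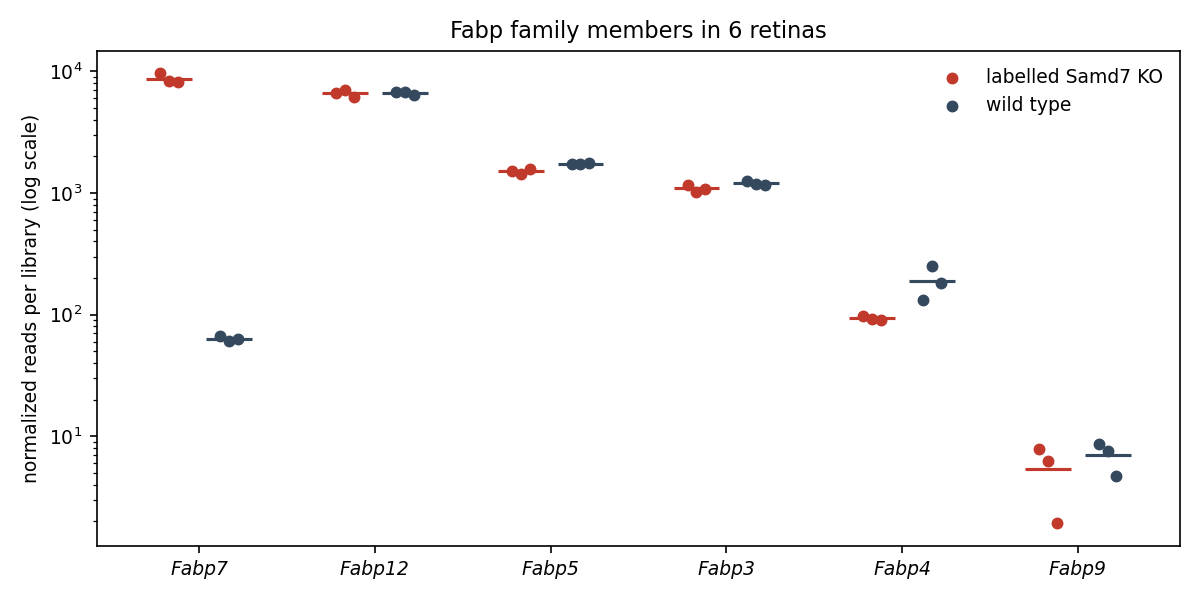
Normalized reads of the 6 members with more than 5 reads in all, on a log axis, for the retinas labelled Samd7 KO (red) and wild type (dark). Points are libraries and lines are group means. Fabp7 lies at 8173 to 9665 in retinas labelled KO and at 60.6 to 66.7 in wild type, while Fabp12, Fabp5 and Fabp3 lie within 1.16-fold of wild type.

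Fabp12 was the member with most reads in normal retina and was close to level between the groups. It had 6603, 7011 and 6219 normalized reads in Samd7 KO-labelled retinas, against 6762, 6780 and 6382 in wild type. The groups overlapped, and the difference of -0.01 on the log2 scale had a 95% interval of -0.16 to 0.15 (limma), which includes 0. The gene spans chromosome 3 from 10244209 to 10301515 and has 4 coding transcripts of very unequal length. Its noncoding neighbour A930014E01Rik overlaps that span, and the sources used here do not state whether counting used strand.

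Fabp5 (chromosome 3, 10012585 to 10016610), the epidermal type found in many tissues including lens and neurons, did not pass the test. It had 1526, 1426 and 1563 normalized reads in Samd7 KO-labelled retinas, against 1726, 1733 and 1775 in wild type. The groups did not overlap, and the log2 fold change was -0.21 (SE 0.08, 95% interval -0.40 to -0.03, limma). The wild-type library rich in lens markers, wild type 3, had 1775 reads of Fabp5, close to the other wild-type libraries. Fabp5l2, a table row with a related symbol, had 27 reads over the libraries labelled KO and 26 over wild type. The ratio was 1.13, with an exact 95% counting interval of 0.637 to 2.02.

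Fabp3 (chromosome 4, 130308738 to 130315463), the heart type that also occurs in neurons, did not pass either. It had 1166, 1026 and 1078 normalized reads in Samd7 KO-labelled retinas, against 1261, 1176 and 1164 in wild type. The groups overlapped between KO 1 and wild type 3, and the log2 fold change was -0.14 (SE 0.09, 95% interval -0.34 to 0.06, limma). Its pseudogene Fabp3-ps1 had 0 reads in every library. The span of Fabp3 is overlapped by Zcchc17, a tested gene that did not pass. The limit on strand given for Fabp12 thus holds for Fabp3 too.

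Fabp4 (chromosome 3, 10204342 to 10208616), the carrier of fat cells, macrophages and capillary endothelium, was lower in the retinas labelled Samd7 KO. It had 97.1, 91.2 and 90.5 normalized reads in KO-labelled retinas, against 132, 249 and 183 in wild type. The libraries labelled KO lay close together and below all wild-type libraries, which spread widely. The means were 92.9 ± 3.60 in KO-labelled retinas, against 188 ± 58.7 in wild-type retinas (SD, n = 3 each), 2.02-fold lower, with a log2 fold change of -0.96 (SE 0.21, limma). Without wild type 2 or without wild type 3 it no longer passed the threshold (log2 fold changes -0.73 and -0.96).

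Endothelial cells and macrophages usually carry Fabp4, and marker sums of these and other cells are given here as a description. Endothelial and pericyte markers summed to 11788 to 12871 normalized reads in KO-labelled retinas, against 9499 to 11043 in wild-type retinas, with 2 of 14 higher and 1 lower (median log2 fold change 0.32). Microglia and macrophage markers summed to 7605 to 8356 in KO-labelled retinas, against 5119 to 5615 in wild-type retinas, with 12 of 16 higher and 0 lower (median 0.67). The shares over all genes were 6.79% higher and 5.21% lower. Of 10 adipocyte markers, Lep and Cfd were at 0 in every library, and Adipoq, the fat cell hormone adiponectin, had at most 1.04 normalized reads in KO-labelled retinas, against 4.33 in wild-type retinas. Of 4 adipocyte markers tested, 0 were higher and 0 lower by limma, and the list summed to 613 to 761 in KO-labelled retinas, against 777 to 789 in wild-type retinas. Pigment epithelium markers were lower in 10 of 14 and higher in 1 (median -1.20), with sums of 2342 to 3324 in KO-labelled retinas, against 5160 to 7762 in wild-type retinas. The part of any of these cell types in the Fabp4 difference was not tested.

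The remaining members were silent or nearly so. Fabp9 (chromosome 3, 10193623 to 10197283), the testis type, had 7, 6 and 2 reads in Samd7 KO-labelled libraries and 10, 7 and 5 in wild type. The ratio was 0.744, with an exact 95% counting interval of 0.359 to 1.502. Fabp6 (chromosome 11, 43596040 to 43601562), the ileal bile acid carrier, had 0, 1 and 3 reads in KO-labelled retinas and 0, 0 and 1 in wild type. The ratio was 4.37, with an interval of 0.432 to 215. A difference in either was not detectable at this depth. Fabp1 (chromosome 6, 71199879 to 71205034) and Fabp2 (chromosome 3, 122895072 to 122899506) had 0 reads in all 6 libraries, which allows up to 3 reads per library, or 0.0565 to 0.0678 in every 1000000 reads in KO-labelled retinas, against 0.0478 to 0.0629 in wild-type retinas. These limits and intervals cover counting error only, since reads amplified without molecular identifiers are not independent molecules. Of 10 gut and liver epithelium genes, Alpi, Apoa4, Cdx1, Cdx2 and Slc10a2 were at 0 in every library, and Alb and Sis were under 10. The gut and liver genes Vil1, Apoa1 and Lgals4 were expressed and tested. Of 3 gut and liver genes tested, 0 were higher and 0 lower, and the list summed to 643 to 1143 normalized reads in KO-labelled retinas, against 1021 to 1235 in wild-type retinas. Of 9 male germ cell genes, 1 reached the filter and was lower (log2 fold change -2.44). Prm2 was at 0, and Tnp1, Tnp2, Prm1, Odf1, Acrv1 and Ldhc were under 10 in every library. The sums of the 9 were 395 to 478 in KO-labelled retinas, against 2281 to 2476 in wild-type retinas. They thus mostly reflect the 1 tested gene. Over all genes tested, 6.79% were called higher and 5.21% lower.

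In all, 5 of 9 members passed the filter, which asked for 10 or more normalized reads in 3 or more libraries. Fabp7 was called higher and Fabp4 lower at a limma adjusted p under 0.05. Over all 20277 genes tested, 6.79% were called higher and 5.21% lower. Nothing is read from the members' count against these shares, since the family was picked on this comparison. In the authors' deposited table, Fabp7 had a log2 fold change of 7.10 and Fabp4 of -1.01, and these 2 members were called there. None of the other 7 was called, and Fabp1 and Fabp2 had no fold change there.

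Compared per kilobase of transcript, the order of the members differed between the groups. In retinas labelled Samd7 KO it ran from Fabp7 (9893 ± 945 normalized reads per kilobase) to Fabp12 (2632 ± 158), Fabp5 (1525 ± 71.9), Fabp3 (1324 ± 85.6), Fabp4 (104 ± 4.02) and Fabp9 (8.27 ± 4.76). In wild type it ran from Fabp12 (2644 ± 89.6) to Fabp5 (1768 ± 27.1), Fabp3 (1459 ± 64.1), Fabp4 (210 ± 65.6), Fabp7 (72.1 ± 3.51) and Fabp9 (10.7 ± 3.09) (SD, n = 3 each). Neighbours in each order did not overlap between libraries, apart from Fabp9 and, below it, Fabp6 (2.73 per kilobase in retinas labelled KO and 0.655 in wild type), which overlapped in the retinas labelled KO. Fabp7 was thus above Fabp12 in the retinas labelled KO and below Fabp4 in wild type. The place of Fabp12 rests on its longest transcript, of 2512 bases. Over its shortest coding transcript, of 548 bases, its level came to 12064 per kilobase in retinas labelled KO and 12119 in wild type, above every other member in both groups.

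The share of Fabp7 in the family's summed level was far higher in the retinas labelled Samd7 KO, and its size depended on the transcript length used. Of the family's reads, Fabp7 had 50.7%, 46.4% and 47.7% in KO-labelled retinas, against 0.670%, 0.606% and 0.659% in wild type. Per kilobase of the longest coding transcript its share was 65.8%, 62.7% and 62.9% in KO-labelled retinas, against 1.22%, 1.10% and 1.19% in wild type. Over the shortest coding transcripts, a choice added after seeing the data, it was 44.3%, 39.8% and 41.5% in KO-labelled retinas, against 0.523%, 0.473% and 0.518% in wild type. The family sum over the longest transcripts was 14766 to 16694 normalized reads per kilobase in KO-labelled retinas, against 6039 to 6243 in wild-type retinas. Without Fabp7 it was 5479 to 5711 in KO-labelled retinas, against 5967 to 6174 in wild-type retinas, and the groups did not overlap. Over the shortest transcripts the sum was 24519 to 27157 in KO-labelled retinas, against 15153 to 15927 in wild-type retinas, and without Fabp7 the groups overlapped, at 14353 to 15603 in KO-labelled retinas, against 15074 to 15851 in wild-type retinas.

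**Figure D2:**
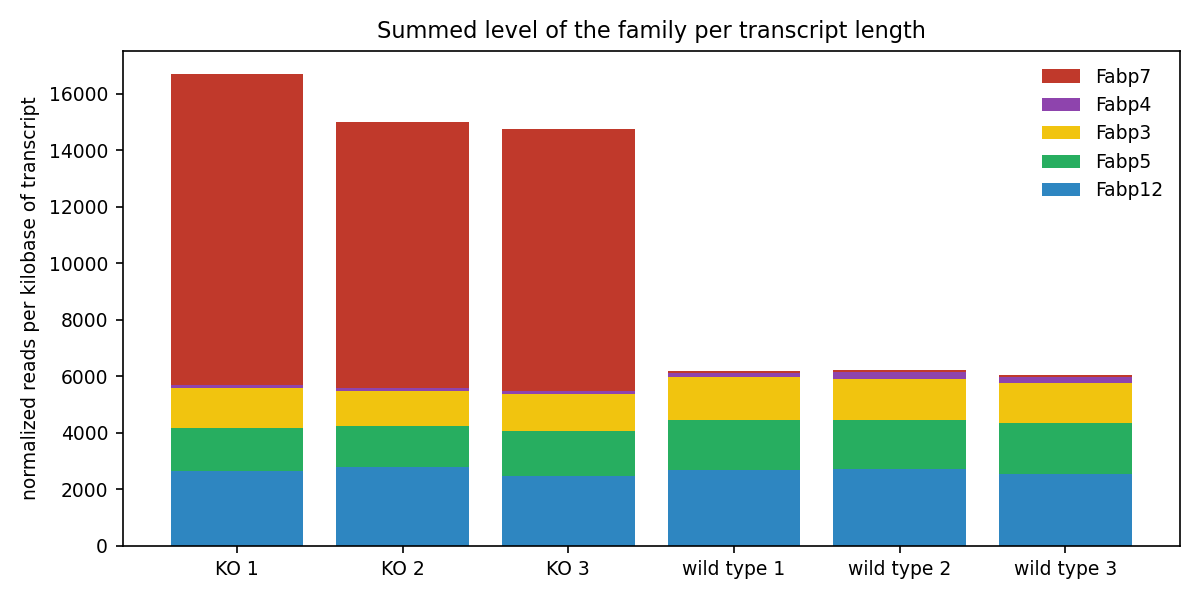
Stacked level of the 5 tested members per library, in normalized reads per kilobase of the longest coding transcript, with the libraries labelled Samd7 KO on the left. Each colour is a gene. The added height in KO-labelled retinas, up to a family sum of 14766 to 16694 over all members, is that of Fabp7 (red).

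The genes nearest to Fabp7 in pattern over the 6 libraries, by Euclidean distance between centred log2(value + 1) profiles, were Insm2, En2, Bpifb6, Crp and Krt73. Insm2, a zinc finger transcription factor, had 6931, 6910 and 7391 normalized reads in KO-labelled retinas, against 55.6, 36.8 and 70.6 in wild type (distance 0.66). Its levels in both groups were thus near those of Fabp7. En2, a homeobox factor of midbrain and hindbrain, had 4680 to 6900 in KO-labelled retinas, against 22.2 to 48.9 in wild-type retinas (distance 1.12). Bpifb6, Crp and Krt73 lay farther off, at distances of 1.86, 2.16 and 2.62. Krt73, a keratin gene, had 0 reads in wild type and was at least 10.6-fold higher in KO-labelled retinas, taking 3 reads per wild-type library as the floor. Since the choice was by distance to Fabp7, these values describe the likeness and test nothing.

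The genes nearest to Fabp4 in pattern were Timm44, Fam71f2, Acbd7, Kif15 and BB218582, at distances of 0.33 to 0.42. Timm44, a part of the mitochondrial protein import motor, had 4361, 4071 and 4300 normalized reads in KO-labelled retinas, against 5717, 8861 and 8510 in wild type. As with Fabp4, wild type 1 was the lowest of the wild-type libraries and lay nearest to the libraries labelled KO. Acbd7, an acyl-CoA binding protein, had 105, 100.6 and 102 in KO-labelled retinas, against 148, 202 and 199 in wild type.

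On chromosome 10 the nearest tested gene to Fabp7 was also higher in the retinas labelled Samd7 KO. Smpdl3a, an acid sphingomyelinase-like phosphodiesterase, begins 6.09 kb beyond the end of Fabp7. It had 700, 671 and 667 normalized reads in KO-labelled retinas, against 218, 211 and 221 in wild type, a 3.13-fold excess with a log2 fold change of 1.64 ± 0.11 (SE; limma adjusted p = 1.14e-06). The groups were far apart relative to their spread. Pkib, an inhibitor of protein kinase A and the nearest tested gene on the other side, 43.8 kb away, had 129, 138 and 123 in KO-labelled retinas, against 176, 186 and 120 in wild type, and did not pass (limma adjusted p = 0.375). Within 500 kb of Fabp7, 1 of 5 tested genes was higher and 0 lower, against 6.79% higher and 5.21% lower over all genes. Smpdl3a was picked after its values were seen.

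Fabp4, Fabp5, Fabp9 and Fabp12 lie in a cluster on chromosome 3, together with Pmp2, the myelin fatty acid binding protein of Schwann cells. Pmp2 had 10.2, 14.5 and 5.77 normalized reads in Samd7 KO-labelled retinas, against 17.1, 44.4 and 46.1 in wild type (3.53-fold lower, log2 fold change -1.68, SE 0.45, limma adjusted p = 0.0310). The call ended without KO 3, without wild type 2 or without wild type 3, and the level is low. As with Fabp4, wild type 1 was the lowest of its group. The cluster as a whole did not move together: Fabp4 and Pmp2 were lower, Fabp5 and Fabp12 did not pass, and Fabp9 was too low to test. Around Fabp4, within 500 kb, 0 of 10 tested genes were higher and 1, Pmp2, was lower. Around Fabp3, 0 of 17 were higher and 2 were lower, Tinagl1 and Sdc3, named after their values were seen. For comparison, 6.79% of all genes tested were called higher and 5.21% lower.

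**Figure D3:**
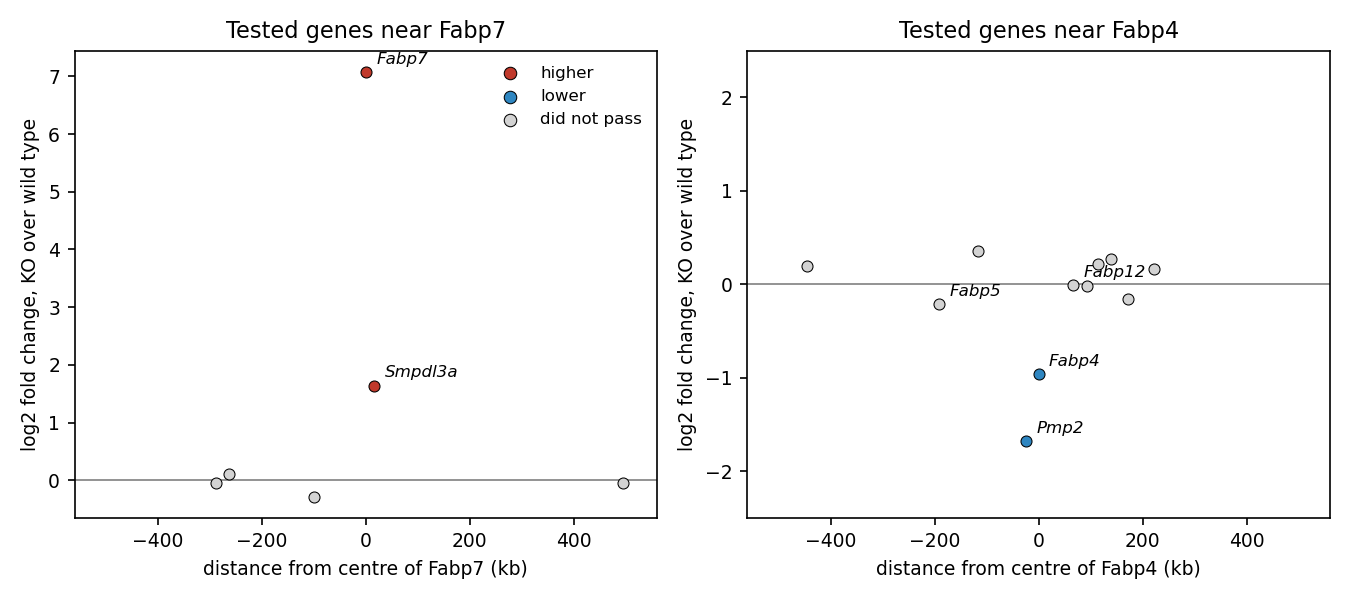
Log2 fold change (labelled Samd7 KO over wild type) of each tested gene within 500 kb of Fabp7 (left) and of Fabp4 (right), against the distance between gene centres in kb. Red is higher, blue lower and grey did not pass. Beside Fabp7 at 7.07 stands Smpdl3a at 1.64, and beside Fabp4 at -0.96 stands Pmp2 at -1.68, with the other genes between -0.28 and 0.36.

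Among the Fabp relatives, Crabp1 and Crabp2, carriers of retinoic acid, did not pass the test. The list of other intracellular lipid binding proteins holds 6 genes, Pmp2 among them. Of 4 tested, 0 were higher and 1, Pmp2, was lower, against 6.79% higher and 5.21% lower over all genes. The call of Pmp2, at a low level, was lost without some single libraries, as given above. Crabp2 had 45.1, 49.8 and 52.0 normalized reads in KO-labelled retinas, against 70.2, 59.5 and 97.0 in wild type, and did not pass (log2 fold change -0.59, SE 0.23, limma adjusted p = 0.124). The log2 fold change of Crabp1 was 0.02, with 95% limits of -0.19 and 0.24 in limma, and its sign turned with edgeR's upper-quartile factors and without KO 1 or wild type 3. Rbp7 was too low to test and Rbp2 had 0 reads.

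**Figure D4:**
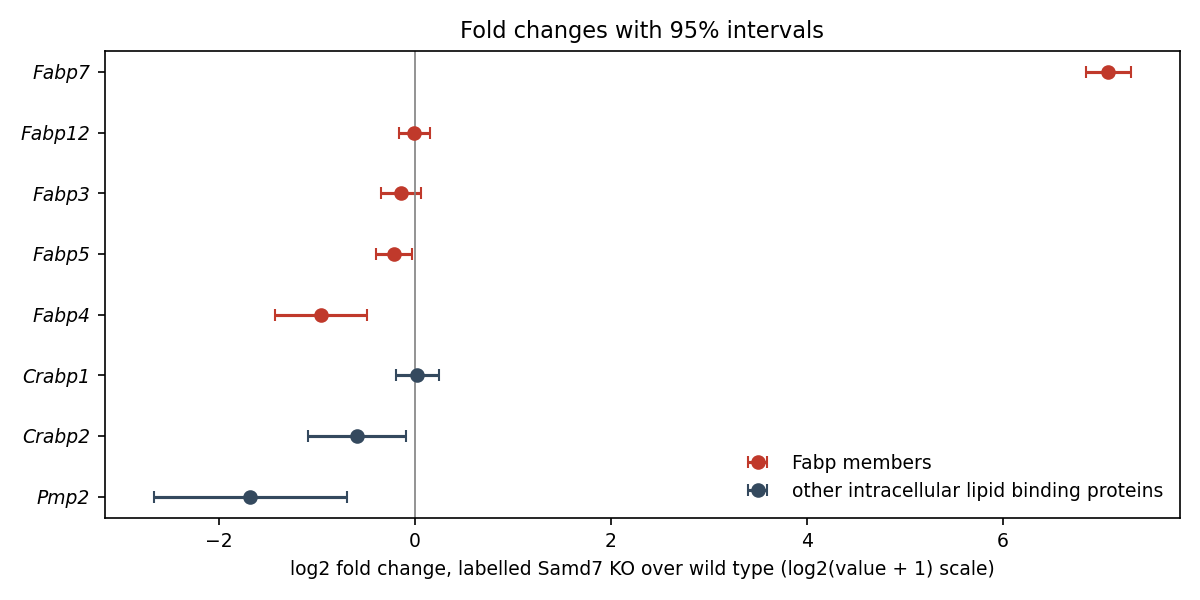
Log2 fold changes (labelled Samd7 KO over wild type, log2(value + 1) scale) with 95% limma intervals for the 5 tested Fabp members (red) and 3 related lipid binding proteins (dark). Fabp7 stands at 7.07, Fabp4 at -0.96 and Pmp2 at -1.68, and the intervals of Fabp12, Fabp3 and Crabp1 include 0.

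Genes that take up and activate fatty acids, the supply side of the pathway, mostly did not pass the test, like most genes tested. Of 17 tested, 1 was higher and 0 lower, against 6.79% higher and 5.21% lower over all 20277 tested genes. The median log2 fold change was -0.02, against 0.00 over all tested genes. The higher gene was Acsl3, an acyl-CoA synthetase, at 20069 ± 3125 normalized reads in KO-labelled retinas, against 13327 ± 213 in wild-type retinas (SD, n = 3 each, 1.51-fold, limma adjusted p = 0.00167). Mfsd2a, the transporter of docosahexaenoic acid as lysophosphatidylcholine, had 465 ± 22.9 in KO-labelled retinas, against 359 ± 30.2 in wild-type retinas and did not pass (limma adjusted p = 0.0596). It passed with DESeq2 and with scaling to total reads. Slc27a4, a fatty acid transport protein, did not pass either (log2 fold change 0.23, limma adjusted p = 0.103), but passed with scaling to total reads.

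Most genes for proteins that bind or cleave acyl-CoA, the activated form of the same ligands, did not pass the test, like most genes tested. Of 13 tested, 1 was higher, 1 lower and 11 not called (median log2 fold change -0.02), against 6.79% higher and 5.21% lower over all genes. Acbd6, an acyl-CoA binding protein, had 6271, 5862 and 6647 normalized reads in KO-labelled retinas, against 2853, 2810 and 2781 in wild type, 2.22-fold higher (limma adjusted p = 8.64e-07). Acbd7, given above, was 1.79-fold lower (limma adjusted p = 0.00821) and lost its call when wild type 3 was left out. Acot13, a thioesterase, had a log2 fold change of -0.24 (limma adjusted p = 0.104).

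In the list of PPAR and RXR nuclear receptors, related receptors and coactivators, 2 of 9 tested genes were higher and 0 lower (median log2 fold change -0.05). The shares over all genes were 6.79% higher and 5.21% lower. Rxrg, the cone retinoid X receptor, was 7.50-fold higher, at 7321 ± 161 normalized reads in KO-labelled retinas, against 976 ± 106 in wild-type retinas (SD, n = 3 each, limma adjusted p = 1.29e-09). It is also 1 of the 13 cone markers, of which 7 were higher and 1 lower. These cone markers summed to 773898 to 814970 in KO-labelled retinas, against 183446 to 188942 in wild-type retinas. Ppargc1b, a coactivator of mitochondrial genes, was 1.39-fold higher (limma adjusted p = 0.00466). Ppard had 359 ± 5.87 in KO-labelled retinas, against 458 ± 16.1 in wild-type retinas and did not pass (limma adjusted p = 0.0590), though it passed with DESeq2 and with edgeR's upper-quartile factors. Pparg was too low to test.

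Of the target genes of the PPAR receptors, the test called Angptl4, a secreted inhibitor of lipoprotein lipase. Of 11 tested, 0 were higher and 1 was lower (median log2 fold change -0.03), against 6.79% higher and 5.21% lower over all genes. Angptl4 was 1.49-fold lower, at 116 ± 15.4 normalized reads in KO-labelled retinas, against 173 ± 19.3 in wild-type retinas (SD, n = 3 each, limma adjusted p = 0.0449). It lost its call under scaling to total reads, with no filter, and on leaving out any of the libraries KO 2, KO 3, wild type 2 and wild type 3. Acaa1b, a peroxisomal thiolase, had a log2 fold change of -0.29 (limma adjusted p = 0.198).

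Beta oxidation, which burns fatty acids, was the longest of these lists. Of 27 tested, 6 were higher and 1 lower (median log2 fold change 0.05), against 6.79% higher and 5.21% lower over all genes. Without wild type 2, 3 genes were higher. Acads, the short-chain acyl-CoA dehydrogenase, had 796, 709 and 782 normalized reads in KO-labelled retinas, against 318, 302 and 341 in wild type, 2.38-fold higher (limma adjusted p = 1.26e-05). Acadm, the medium-chain enzyme, was 1.36-fold higher (limma adjusted p = 0.00225) and Decr1, a reductase for unsaturated chains, 1.48-fold higher (limma adjusted p = 0.00338). Hsd17b4, Abcd3 and Hadha were the other higher genes and Eci1 the lower one, named here after their values were seen. Among fits that left out 1 library, Hadha kept its call only without KO 2; it also lost it with no filter and with edgeR's upper-quartile factors. Abcd3 lost its call without KO 3, wild type 2 or wild type 3, Hsd17b4 without wild type 2 and Eci1 without wild type 3.

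Lipid droplet and triglyceride genes had 0 of 18 higher and 1 lower (median log2 fold change -0.12), against 6.79% higher and 5.21% lower over all genes. The lower gene was Plin4, a droplet coat protein, at 127 ± 41.6 normalized reads in KO-labelled retinas, against 235 ± 30.0 in wild-type retinas (SD, n = 3 each, 1.86-fold, limma adjusted p = 0.0183). Its call ended without KO 3, wild type 1 or wild type 3. Pnpla2, a triglyceride lipase, and Fitm2, a droplet assembly protein, had log2 fold changes of -0.27 (limma adjusted p = 0.0693) and 0.39 (limma adjusted p = 0.0769). Pnpla2 passed with DESeq2, with edgeR's upper-quartile factors and without KO 2, and Fitm2 with DESeq2, with scaling to total reads and without KO 1 or wild type 1.

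**Figure D5:**
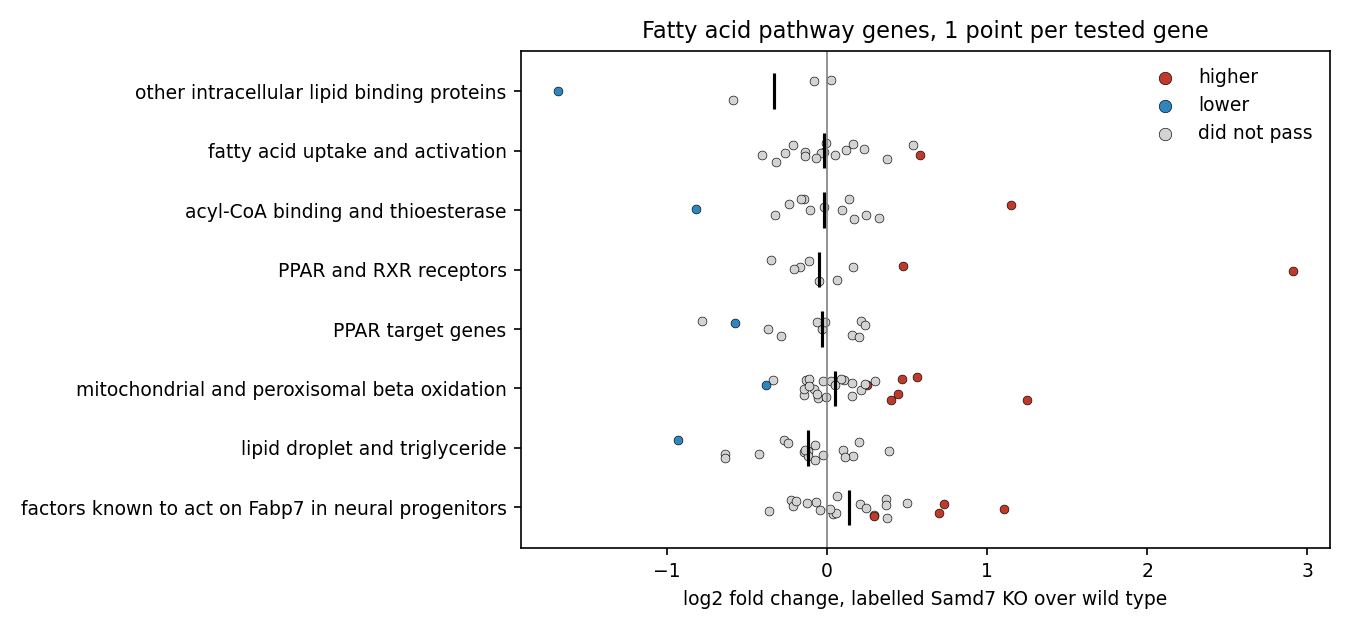
Log2 fold change (labelled Samd7 KO over wild type) of each tested gene of the 8 pathway lists, 1 point per gene, with the vertical position within a list spread at random. Red is higher, blue lower, grey did not pass, and the black line is the list's median. Medians lie between -0.33 and 0.13, and Rxrg at 2.91 is the point farthest to the right.

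Factors known to act on Fabp7 in neural progenitors had 4 of 22 higher and 0 lower (median log2 fold change 0.13), against 6.79% higher and 5.21% lower over all genes. The list was chosen with earlier results of these data known, and its part in the Fabp7 difference was not tested. Notch2 was 2.13-fold higher, at 637 ± 85.9 normalized reads in KO-labelled retinas, against 299 ± 70.3 in wild-type retinas (SD, n = 3 each, limma adjusted p = 9.00e-04). Its fellow receptor Notch1 was 1.65-fold higher (limma adjusted p = 0.00244), and Nfia, a nuclear factor I protein of glia, 1.63-fold higher (limma adjusted p = 0.00231). The fourth was Sox9, a glial factor, whose call was lost on leaving out any single library other than KO 2, and with edgeR's upper-quartile factors. The Notch targets Hes1 and Hes5, picked like Sox9 and Pax6 after their values were seen, had log2 fold changes of -0.23 (limma adjusted p = 0.163) and -0.36 (limma adjusted p = 0.0888). Hes5 passed with DESeq2 and without KO 2. Pax6, which activates Fabp7 in developing forebrain, had one of -0.07, with 95% limits of -0.21 and 0.07 in limma.

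Glia are the cells in which Fabp7 is best known, and their markers are given here as a description. Müller glia markers summed to 249049 to 265453 normalized reads in KO-labelled retinas, against 237609 to 258626 in wild-type retinas, with 6 of 14 higher and 2 lower (median log2 fold change 0.27). Among all genes tested, 6.79% were called higher and 5.21% lower. Astrocyte markers summed to 49628 to 56603 in KO-labelled retinas, against 55096 to 59344 in wild-type retinas, with 1 of 6 higher, Gfap, and 1 lower. Gfap, the filament protein of reactive glia, had 7800 ± 1030 in KO-labelled retinas, against 2095 ± 487 in wild-type retinas (SD, n = 3 each, 3.72-fold, limma adjusted p = 5.15e-06). Radial glia and progenitor markers summed to 28240 to 31101 in KO-labelled retinas, against 24526 to 27430 in wild-type retinas, with 1 of 9 tested higher and 0 lower, while Fgf15, Mki67 and Top2a were under 10 in every library. Oligodendrocyte and Schwann cell markers had 0 of 6 tested higher and 1 lower, with Olig2 at 0 and sums of 2746 to 3059 in KO-labelled retinas, against 2734 to 3140 in wild-type retinas. Red blood cell markers were higher in 5 of 5, with sums of 5661 to 8293 in KO-labelled retinas, against 1467 to 2232 in wild-type retinas. The part of these markers in the Fabp7 difference was not tested.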

How the data were processed

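Gene expression was measured by sequencing polyadenylated RNA of 6 mouse retinas, 1 retina per library. Per the labels' protocols, cDNA was made by template switching from low input, sonicated and amplified for 15 cycles, with no molecular identifiers described. The submitters' processing notes name STAR 2.7.3a, HTSeq 0.12.4, cutadapt 3.0, SAMtools 1.9, DRAGEN and DESeq2, and as builds mm10 and GRCm38. No source used here gives the role of each tool or the strand setting. The deposited signal of a gene in a library is its read count over that library's size factor, as the values show. The authors' log2 fold changes and adjusted p-values come from DESeq2, per the file headers.

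Division by the worth of 1 read gave whole reads for 100% of 166478 values above 0, within 0.01 reads. Totals were 44231112 to 62813549 reads per library. Within groups, pairs of libraries had a chi-square per degree of freedom of 7.20 to 33.5, so none was a second copy of another. The members, the 8 pathway lists, the 18 marker lists and the alternatives were chosen with earlier results of these data known.

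The deposited values are not raw counts, so the test was limma-trend on log2(value + 1) over all 20277 genes reaching 10 in 3 or more libraries, two-sided, with Benjamini-Hochberg adjustment over all of them and calls at an adjusted p under 0.05. A fold is the ratio of mean normalized reads between groups, while a log2 fold change is on the scale log2(value + 1) and so understates change in low genes. Named besides the members were up to 3 tested genes per pathway list with the smallest adjusted p (where none was called, the 2 most abundant), and the 5 genes nearest in pattern to each tested member with at least a 2-fold difference, predicted models left out; some genes this rule names are not reported here. All 49997 symbols were found in RefSeq's GRCm38.p6 table, the source of positions. Transcript lengths and coding sequences came from GENCODE M21, and promoters from RefSeq. Alternatives were edgeR (TMM, RLE and upper-quartile factors) and DESeq2 on the recovered reads, scaling to total reads, other filters and pseudocounts, a replicate block, and each library left out in turn. Software was limma 3.58.1, DESeq2 1.42.0 and edgeR 4.0.16 in R 4.3.3, with Biopython 1.88 for alignments.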

Additional observations from a re-analysis of the deposited data

How the results depend on the processing

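The 2 called members stayed at 2 under edgeR, DESeq2, scaling to total reads, both other filters, both other pseudocounts and the replicate block, and leaving out single libraries gave 1 or 2, with 1 where wild type 2 or wild type 3 was left out and Fabp4 lost its call. Under these alternatives the sign of Fabp12 turned, to log2 fold changes of 0.049 with scaling to total reads, and, on leaving out 1 library, 0.035 (KO 3), 0.0055 (wild type 1) and 0.0075 (wild type 2); it was called in none of them. Crabp1, never called, turned to -0.010 with upper-quartile factors, -0.019 (KO 1 left out) and -0.015 (wild type 3 left out). For Fabp12 the values without single libraries ran from -0.051 to 0.035. The count of changed genes over the whole table, 2432, ran from 1313 (wild type 3 left out) to 3247 (KO 1 left out), with 1470 for wild type 2 and 1497 for KO 3. On the recovered reads edgeR with TMM factors called 2494 genes and DESeq2 2883. With a replicate block the count was 1624, and 2 members were called; Angptl4, Kif15, Hadha and Sox9 lost their calls, and no other gene run under the alternatives changed its call. When single libraries were left out, the counts of higher genes ran from 0 to 1 in PPAR targets, 1 to 2 in acyl-CoA binding, 0 to 1 in lipid droplets, 3 to 4 in factors acting on Fabp7 and 3 to 7 in beta oxidation. Those of lower genes ran from 0 to 1 in PPAR targets, acyl-CoA binding, factors acting on Fabp7 and other lipid binding proteins, and from 0 to 2 in lipid droplets and beta oxidation. Same-numbered libraries did not deviate together (correlations of -0.31, -0.23 and -0.16 across genes), while differently numbered ones gave -0.14 to 0.37. This gave no sign of a pairing by number, but with 3 libraries per group it cannot exclude one. Over the shortest in place of the longest coding transcript, levels per kilobase were 78.9 for Fabp7 and 14.3 for Fabp9 in wild type, and 12064 in retinas labelled KO and 12119 in wild type for Fabp12, where the difference in length is the cause. Leaving out each library for the pathway lists, and running the alternatives for genes outside the naming rule, was added after seeing the data. Depth limits Fabp1, Fabp2, Fabp6 and Fabp9, which have too few reads for a test. The cause of the other changes was not tested.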
